A study of Mus musculus with 1298 samples.

Results

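The genes described here were the 48 ligands, receptors, Smads and extracellular antagonists of the Bmp and Tgf-beta pathways that a fixed list named, and they were followed through mouse cells descending from Pax7+ progenitors. All 48 were found among the 17634 genes of the 10x table, the 22894 genes of the Smart-seq2 (ss2) table and the 22938 genes of the bulk table. The list held 7 Bmp ligands, 7 Tgf-beta and activin ligands, 6 type I receptors, 4 type II receptors, 2 coreceptors, the decoy receptor Bambi, 8 secreted antagonists, 4 latent Tgf-beta binding proteins, the protease Bmp1, 5 receptor-regulated Smads, the co-Smad Smad4 and the inhibitory Smads Smad6 and Smad7. The genes were picked by name, with earlier results of these data known, and no measured value served as a criterion.

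Every embryo carried Pax7CreER, a tamoxifen-inducible recombinase driven by the Pax7 gene, and R26R-stop-EYFP, a reporter that stays on in all descendants of a recombined cell. All received 1 dose of tamoxifen (75 ug per g) at E9.5, and YFP+ cells of pooled embryos, from which heads, limbs and viscera had been removed, were sorted at E12.5, E14.5 or E16.5. Single cells were profiled with 1 10x library per day and with ss2 plates. Bulk ss2-type libraries were made from YFP+ cells sorted afresh at E16.5 as Pdgfra+ (4 libraries) or Pdgfra-/Cd36+ (2 libraries), and from Pdgfra+ cells sorted at E14.5 and cultured in adipogenic medium (ADM, 6 libraries) or in DMEM with 10% FBS (DMEM, 6 libraries). Each replicate number of a Pdgfra+ group held 1 Thy1+ and 1 Thy1- library, but the bulk column names did not carry the Thy1 sign, so the Pdgfra+ libraries were numbered 1 to 6 (or 1 to 4) and were compared over both gates. All fresh libraries are labelled E16.5, but the study's text places the fresh Thy1- sort at E14.5, so the day of those 2 Pdgfra+ libraries is unsure. The fresh bulk libraries were technical duplicates of pooled embryos and the cultured ones were triplicate wells, so their p-values do not measure spread between embryos. Each Pdgfra+ group held both Thy1 gates, with no gate term in the fit. The spread behind the p-values is therefore the difference between gates together with technical or well-to-well spread.

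Ligands of both branches bind pairs of type I and type II receptor kinases, which phosphorylate receptor-regulated Smads. Smad1, Smad5 and Smad9 carry Bmp signals and Smad2 and Smad3 carry Tgf-beta and activin signals, and both groups enter the nucleus with Smad4. Secreted antagonists such as Nog, Grem1 and Fst hold ligands away from receptors, and latent Tgf-beta binding proteins store Tgf-beta in the matrix. In the embryonic trunk Bmp signals are known to restrain myogenesis and to promote brown fat, and myostatin (Mstn) is known for limiting muscle growth.

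Cells were grouped into classes from markers that excluded all 48 members, and class names carry "-like" since they were rebuilt here: early and late progenitor (EP, LP), dermal fibroblast (DF), brown adipocyte (BA), early and late muscle (EM, LM), neuron (N), neural progenitor and glia (NPG) and pericyte (PE). Of 3916 cells 3852 were kept, and counts were summed per class and pool, a pool being 1 platform at 1 day. The 16 sums of 10x held at least 30 cells and 52516 to 2035337 UMIs, and the 13 ss2 sums at least 30 cells and 21147248 to 97449984 estimated counts. Summed markers of the BA list reached 13091 CPM (counts scaled to a common library size) in BA-like cells against 6.03 CPM of them in EP-like and 139.2 in LP-like cells. Less separated were the EP markers, at 858.8 CPM in EP-like cells, 714.7 CPM in DF-like and 522.7 CPM in LP-like cells, and the EM markers, at 3711 CPM in EM-like, 3074 CPM in LM-like and 2705 CPM in LP-like cells. The EP-like name rested on a low marker score (a mean z-score of 0.417), and these cells held 1106.8 CPM of the DF markers, more than of their own. Both EP-like sums were from E12.5, the few EP-like cells of later days (2, 4 and 2 per pool) forming no sum, so that class and day cannot be told apart in them, and 3 barcodes were shared between 10x libraries. Levels are given as CPM with 95% exact Poisson intervals for counting error where 1 sum is described, and they are compared between genes only in 10x, where 1 UMI stands for 1 transcript end.

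RefSeq promoter windows (250 bases before to 50 bases after the transcript start, GRCm38.p6) were matched for 34 of the 48 members in 42 windows, of 32851 windows in all. Of the 5 printed here 4 belong to members on which the results below turn: Mstn, the ligand found in muscle, Bmper and Bmp5, found in mesenchymal progenitors and at or near 0 in muscle, and Nbl1, low in BA-like cells. The fifth, that of Smad6, is shown for its motif and not for a result, since among the matched windows of members it was the one that held the Smad palindrome. Capitals mark the motif searched, TATAAA in Mstn, GGCGCC in Nbl1 and GTCTAGAC in Smad6, counted on both strands, and windows without capitals held none of the searched motifs. Positions of a motif are counted from the transcript start.
Mstn, chr1:53061390-53061689, plus strand: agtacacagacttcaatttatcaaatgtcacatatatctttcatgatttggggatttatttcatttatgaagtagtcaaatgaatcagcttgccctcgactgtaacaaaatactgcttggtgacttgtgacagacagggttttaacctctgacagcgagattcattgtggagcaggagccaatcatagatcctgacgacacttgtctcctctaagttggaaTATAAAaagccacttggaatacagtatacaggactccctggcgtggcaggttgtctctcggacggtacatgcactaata
Bmper, chr9:23222826-23223125, plus strand: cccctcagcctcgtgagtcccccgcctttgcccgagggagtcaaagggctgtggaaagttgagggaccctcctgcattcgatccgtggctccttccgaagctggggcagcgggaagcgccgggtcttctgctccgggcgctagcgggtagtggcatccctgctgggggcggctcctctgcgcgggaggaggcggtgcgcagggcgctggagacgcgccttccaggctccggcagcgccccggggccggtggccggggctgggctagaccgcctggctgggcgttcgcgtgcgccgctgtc
Bmp5, chr9:75775115-75775414, plus strand: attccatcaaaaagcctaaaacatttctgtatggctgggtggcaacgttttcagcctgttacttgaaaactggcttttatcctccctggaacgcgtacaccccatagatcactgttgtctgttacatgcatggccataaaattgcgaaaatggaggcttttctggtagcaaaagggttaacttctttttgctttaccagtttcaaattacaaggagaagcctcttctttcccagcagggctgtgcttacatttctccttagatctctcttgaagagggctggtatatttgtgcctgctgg
Nbl1, chr4:139092921-139093220, minus strand: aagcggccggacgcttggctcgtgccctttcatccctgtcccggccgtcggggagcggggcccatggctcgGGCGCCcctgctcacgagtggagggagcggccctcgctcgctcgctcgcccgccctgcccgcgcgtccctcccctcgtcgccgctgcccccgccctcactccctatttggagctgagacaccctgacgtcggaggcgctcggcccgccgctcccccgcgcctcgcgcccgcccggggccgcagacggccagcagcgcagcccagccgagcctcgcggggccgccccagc
Smad6, chr9:64022010-64022309, minus strand: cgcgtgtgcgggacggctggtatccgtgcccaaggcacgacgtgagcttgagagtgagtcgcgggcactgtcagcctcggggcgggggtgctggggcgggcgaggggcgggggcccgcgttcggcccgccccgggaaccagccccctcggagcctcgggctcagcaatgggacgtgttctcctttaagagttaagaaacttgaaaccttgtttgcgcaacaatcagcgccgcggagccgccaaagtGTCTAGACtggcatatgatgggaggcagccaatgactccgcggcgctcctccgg
The Mstn window held TATAAA at -29 and had a GC content of 41.3%, close to Bmp5 at 43.3%, while Bmper reached 72.7%, Smad6 66.3% and Nbl1 78.3%. GTCTAGAC, at -4 in Smad6, stood in 0.213% of all windows (70 of 32851). TATAAA stood in 13.6% of all windows and in those of 6 members, and GGCGCC, at -179 in Nbl1, in 11.9% of all windows and in those of 10 members. CAGCTG, the myogenic E-box, was found in 16.3% of all windows and in those of 3 members, and Mstn was not among them within these 300 bases.

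Across the 16 class and day sums of 10x the members had unlike peaks. The highest sum fell in EP-like, LP-like and DF-like cells for 10 members each, in N-like cells for 8, in EM-like cells for 3, in LM-like, NPG-like and PE-like cells for 2 each and in BA-like cells for 1. For only 3 members, Fstl1, Bmper and Smad7, did the interval of the highest sum lie above that of the class second in CPM. Classes lower in CPM but with fewer UMIs and wider intervals, such as PE-like cells, were not compared. Most of these orders were therefore not resolved at this depth. Tgfb2, Bmpr1a, Tgfbr1, Fstl1, Nbl1, Smad2, Smad5 and Smad7 were the 8 members with UMIs in every sum.

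**Figure D1:**
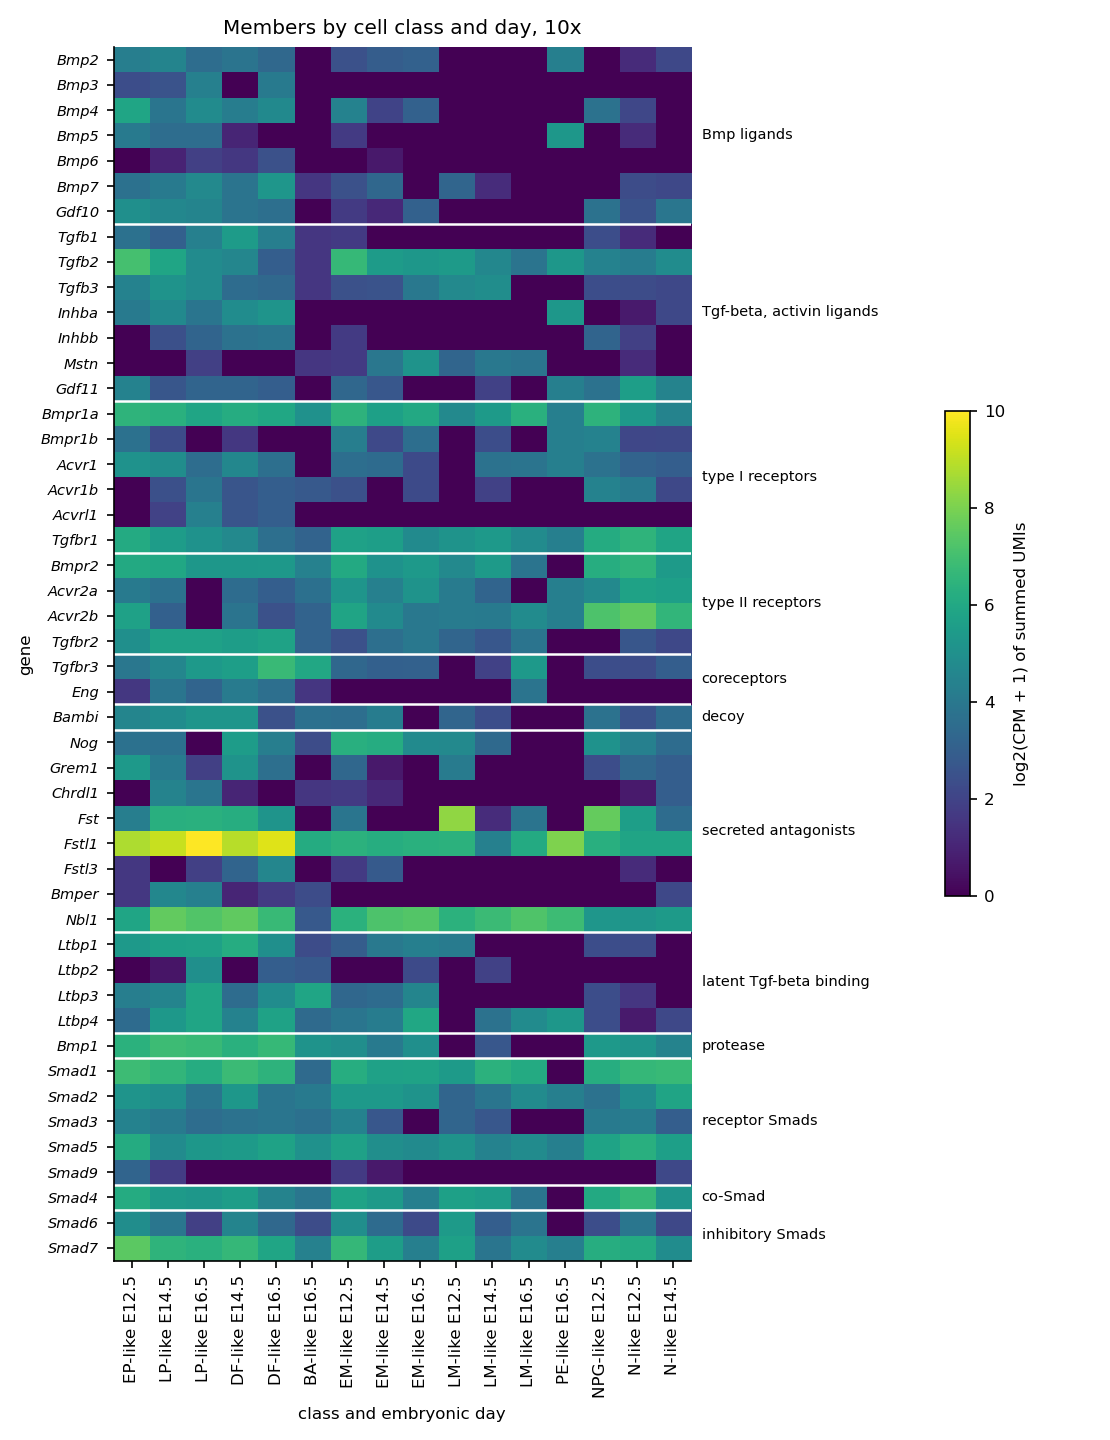
Level of the 48 members, grouped by role, in each of the 16 class and day sums of 10x, as log2(CPM + 1). Fstl1 forms the brightest row and peaks at 1087 CPM in E16.5 LP-like cells, while most ligand rows stay dark in BA-like and LM-like columns.

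Fstl1, a secreted follistatin-like glycoprotein, was the most abundant member. It was at 441.2 CPM (interval 384.02 to 504.4) in EP-like cells, at 578 CPM at E14.5 and 1087 CPM (982 to 1200) at E16.5 in LP-like cells, and at 479.3 CPM and 725 CPM (647 to 811) in DF-like cells. EM-like sums lay between 73.5 and 84 CPM and the BA-like sum at 70.2 CPM, several-fold under every mesenchymal sum. Nbl1, a secreted Bmp antagonist of the DAN family, was at 193.6 and 154.5 CPM in LP-like cells at E14.5 and E16.5, 104.6 CPM in DF-like cells of E16.5 and 6.01 CPM in BA-like cells. Its interval in DF-like cells of E14.5, 162.5 to 218.6 CPM, held the LP-like value of that day.

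Fst, which binds activins and Bmps, reached 321.9 CPM (227.8 to 441.9, 38 UMIs over 37 cells) in LM-like cells of E12.5 and was at 1.39 CPM at E14.5 and 13.5 CPM at E16.5, each from 1 UMI. NPG-like cells held 200 CPM of it (147.2 to 264.7). Acvr2b, a type II receptor for activins and myostatin, was at 187.1 CPM (165.8 to 210) in N-like cells of E12.5, 145.6 CPM (101.4 to 202.4) in NPG-like cells and 95.1 CPM in N-like cells of E14.5, against 0 to 56.8 CPM elsewhere. Gdf11, a close relative of myostatin, was likewise highest in N-like cells, at 47.6 CPM (37.2 to 60.1) at E12.5. Smad7, an inhibitory Smad, peaked at 177.3 CPM (141.8 to 218.9) in EP-like cells, and Tgfb2 was at 130 CPM (99.8 to 166.2) there, an interval that overlapped the 102.2 CPM (74.6 to 136.8) of EM-like cells at E12.5.

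The comparison of EM-like cells with the mesenchymal progenitors of the same pool (EP-like at E12.5, LP-like later, 6 pools) addressed how the pathway differs between the muscle and the mesenchymal branches. Muscle progenitors held Mstn and more Nog, Acvr2a and Acvr2b, and less of 14 members, among them the ligands Bmp4, Bmp5, Bmp7, Inhba, Tgfb1 and Tgfb3. Of 45 members tested, 4 were higher and 14 lower in EM-like cells (18 of 45, where 26.1% of all genes tested were called, 11% higher and 15.1% lower). The members' median log2 fold change was -1.20, against -0.10 over all genes, and 27 members that did not pass ranged from -6.00 to 1.45.

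Among ligands, Mstn stood at 2.27, 14.7 and 34.03 CPM in EM-like cells of 10x at E12.5, E14.5 and then E16.5 and at 196.01, 55.4 and 171.5 CPM in ss2. In the mesenchymal sums it was at 0, 0 and 2.76 CPM in 10x and at 0.322, 0 and 0.0144 CPM in ss2, so the groups did not overlap within a platform except at E12.5 of 10x, where the EM-like value rested on 1 UMI (adjusted p = 0.000129, higher in 6 of 6 pools). At E14.5 in 10x the 24 UMIs of EM-like cells against none made a level at least 10.0-fold higher (a floor of 3 counts per sum). Bmp5 went the other way, with 16.49, 10.8 and 11.0 CPM in 10x and 84.5, 35.8 and 28.6 CPM in ss2 in mesenchymal cells, against 2.27, 0 and 0 CPM and 0.142, 0.226 and 0.0221 CPM in EM-like cells (log2 fold change -8.26, SE 0.801, adjusted p = 8.52e-05). Inhba, the activin A subunit, was at 16.49, 25.5 and 13.8 CPM in 10x and 7.87, 18.3 and 25.9 CPM in ss2 in mesenchymal sums, and at 0 in all 3 EM-like sums of 10x and 0.142, 0.659 and 0.177 CPM in ss2 (-6.12, SE 0.648, adjusted p = 0.000129). Both ligands were thus close to absent from the muscle progenitors on each platform and day.

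Bmp4 stood at 57.7, 13.8 and 27.6 CPM in mesenchymal and 20.4, 3.06 and 7.56 CPM in EM-like cells of 10x, and at 95.8, 44.3 and 57.96 CPM against 2.46, 8.71 and 21.9 CPM in ss2 (-2.47, SE 0.518, adjusted p = 0.00734). Tgfb1 was low throughout, at 12.4, 7.37 and 19.3 CPM against 2.27, 0 and 0 CPM in 10x and at 2.92, 1.41 and 2.37 CPM against 0.473, 1.05 and 0.574 CPM in ss2 (-2.51, SE 0.831, adjusted p = 0.044). Both ligands were lower in muscle in 6 of 6 pools.

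The receptors moved in both directions. Tgfbr2, the type II receptor for Tgf-beta, was at 4.54, 11.6 and 15.1 CPM in EM-like and 30.9, 51.6 and 52.4 CPM in mesenchymal cells of 10x, with 17.1, 54.7 and 81.2 CPM against 46.6, 303.4 and 262.97 CPM in ss2 (-1.96, SE 0.207, adjusted p = 0.000129). Acvr1, a type I receptor for Bmps, was at 11.4, 10.4 and 3.78 CPM against 32.98, 28.99 and 11.0 CPM in 10x and at 5.25, 3.17 and 7.42 CPM against 22.3, 19.8 and 29.1 CPM in ss2 (-1.95, SE 0.327, adjusted p = 0.00182). Eng, a Tgf-beta coreceptor, had no UMI in any EM-like sum of 10x against 2.06, 13.8 and 8.28 CPM, and 1.13, 4.41 and 1.74 CPM against 1.39, 54.2 and 128.04 CPM in ss2 (-3.85, SE 1.02, adjusted p = 0.0244). All 3 receptors were lower in muscle in every pool, whereas the activin type II receptors Acvr2a and Acvr2b, named beyond the 12 members of largest change, were higher in 6 of 6 pools (1.1, SE 0.340 and 1.80, SE 0.427, adjusted p = 0.0334 and 0.0104).

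The antagonists split in the same way. Nog, a Bmp-sequestering protein, was at 77.2, 71.7 and 26.5 CPM in EM-like and at 12.4, 11.8 and 0 CPM in mesenchymal cells of 10x, and at 19.9, 4.14 and 3.09 CPM against 8.64, 0 and 0.546 CPM in ss2 (3.00, SE 0.775, adjusted p = 0.0232). Bmper, a secreted modulator of Bmp activity, was at 0 in all 6 EM-like sums and at 2.06, 24.1 and 19.3 CPM in 10x and 11.6, 134.8 and 122.96 CPM in ss2 in mesenchymal sums (adjusted p = 9.32e-05). At E14.5 in 10x the LP-like level was at least 13.1-fold higher than the EM-like one by the same floor. Fstl1 was at 284.2, 258.2 and 350.8 CPM against 986, 1926 and 3287 CPM in ss2 and followed the 10x levels given above (-2.80, SE 0.252, adjusted p = 0.000138), and the procollagen and Chordin protease Bmp1 was at 29.5, 15.9 and 30.3 CPM against 82.5, 114.5 and 104.8 CPM in 10x and 27.6, 68.8 and 84.5 CPM against 130, 345.1 and 329.2 CPM in ss2 (-2.14, SE 0.189, adjusted p = 5.14e-05).

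Bmp7, Tgfb3, Ltbp1 and Ltbp3 were the other called members, lower in muscle with log2 fold changes from -1.92 to -1.04. None of the 5 receptor-regulated Smads, Smad4, Smad6 or Smad7 passed edgeR's test, 2 of these 8 did at an unadjusted p under 0.05 (1 higher, 1 lower), and DESeq2 called 1 of them, an inhibitory Smad, lower. Of 10 tested genes listed as Tgf-beta targets, 1 was higher and 6 were lower in muscle, and of 8 tested Bmp targets 1 was higher and 4 were lower, where Postn and Thbs1 of the former list are also LP markers. Without the ss2 pool of E16.5 the number of members called was 11 in place of 18, and DESeq2 called 28.

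**Figure D2:**
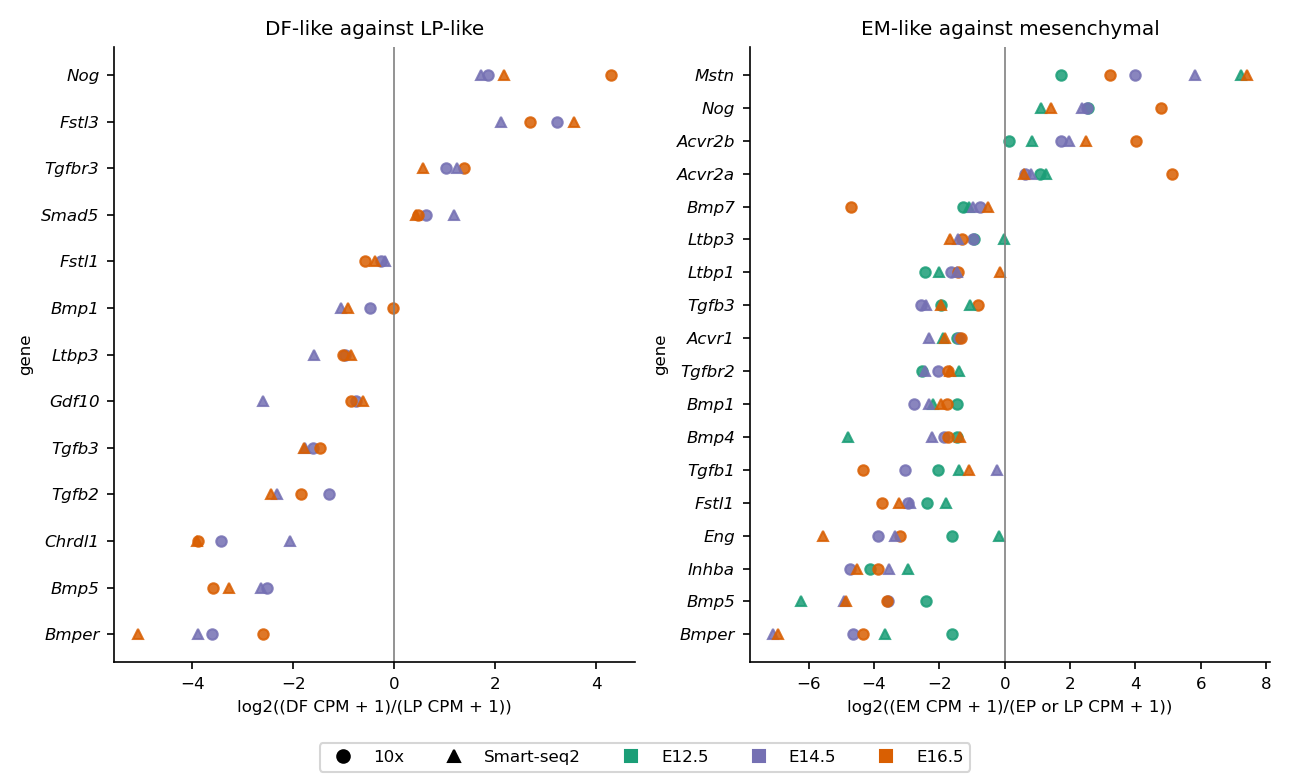
Difference of level within each pool, log2((CPM + 1) of the first class over (CPM + 1) of the second), for the called members of DF-like against LP-like (left) and EM-like against mesenchymal progenitors (right); circles are 10x, triangles ss2 and the colour gives the day. Every point of a member lies on 1 side of 0, with Bmper the lowest at DF-like against LP-like.

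Within muscle, LM-like cells, which express contractile genes, were compared with EM-like cells in 5 pools. The differentiating cells held less Nog, Bmp1, Tgfb2 and Ltbp1 and more Tgfb3. Of 25 members tested, 1 was higher and 9 were lower (10 of 25, where 27.5% of all genes tested were called, 12.2% higher and 15.3% lower), with a median of -0.52 against -0.01 over all genes. For want of counts 23 members were left without a test, namely all 7 Bmp ligands, 4 Tgf-beta and activin ligands, 2 type I receptors, both coreceptors, 5 antagonists, Ltbp2, Smad9 and Smad6, and the 15 that did not pass ranged from -0.93 to 0.65.

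Tgfb3 was at 25.4, 29.1 and 0 CPM in LM-like and 4.54, 4.90 and 15.1 CPM in EM-like cells of 10x for E12.5, E14.5 and then E16.5, and at 198.5 and 114.7 CPM against 23.3 and 43.95 CPM at E14.5 and E16.5 of ss2 (2.27, SE 0.382, adjusted p = 0.00014). It was higher in 4 of 5 pools, the E16.5 pool of 10x, with 40 LM-like cells, being the exception. Tgfb2 moved oppositely, with 42.4, 23.6 and 13.5 CPM against 102.2, 43.5 and 37.8 CPM in 10x and 43.3 and 31.5 CPM against 190 and 158.9 CPM in ss2 (-1.76, SE 0.259, adjusted p = 3.01e-06). These 2 ligands bind the same receptors, and in EM-like cells Tgfb2 was the more abundant in 10x at each day.

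Nog stood at 25.4, 9.70 and 0 CPM in LM-like sums of 10x and 0.230 and 0.218 CPM in those of ss2, under the EM-like value of the same pool every time (-3.25, SE 0.471, adjusted p = 2.37e-06). Bmp1 was at 0, 5.54 and 0 CPM in 10x and 10.3 and 5.42 CPM in ss2 (-3.03, SE 0.437, adjusted p = 2.18e-06). Ltbp1, a latent Tgf-beta binding protein, was at 16.9, 0 and 0 CPM against 6.81, 15.3 and 18.9 CPM in 10x and at 0.845 and 0.691 CPM against 67.7 and 52.4 CPM in ss2 (-5.80, SE 0.769, adjusted p = 1.21e-05). At E12.5, where the LM-like sum held 37 cells, Ltbp1 was the higher in LM-like cells, and the other 4 pools had it lower.

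Fstl1 was at 84.7, 19.4 and 67.7 CPM in LM-like cells of 10x and 38.4 and 89.7 CPM in ss2, lower than in EM-like cells in 4 of 5 pools (-1.83, SE 0.304, adjusted p = 0.000386). Bambi, a pseudoreceptor without a kinase domain, was at 8.47, 4.16 and 0 CPM against 11.4, 17.2 and 0 CPM in 10x and 4.43 and 12.6 CPM against 19.97 and 39.4 CPM in ss2 (-1.72, SE 0.491, adjusted p = 0.00814). Acvr2a, at 16.9, 8.32 and 0 CPM against 36.3, 19.6 and 34 CPM in 10x and 40.9 and 18.1 CPM against 93.9 and 30.5 CPM in ss2, was lower by a log2 fold change of -1.02 (SE 0.342, adjusted p = 0.0247). Smad2 and Ltbp4 changed by less, with -0.88 and -0.74. Of the 9 tested Tgf-beta targets 5 were lower, Postn (-8.34), Tagln (-4.22), Fn1 (-4.00) and Tgfbi (-3.45) by the most, and 1 was higher. The LM-like to EM-like difference changed between E14.5 and E16.5 for 3 of 34 members tested with the interaction of class and day, Mstn, Bmp7 and Tgfb3, where 2.55% of all genes tested were called. Of these Bmp7 was left without a test above, and its LM-like ss2 sum of E16.5 held 6 counts. Without the ss2 pool of E14.5 or of E16.5 the number of called members was 6 or 5, and Acvr2a, Smad2 and Ltbp4 no longer passed when no filter on low counts was set.

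DF-like cells were compared with LP-like cells in 4 pools, E14.5 and E16.5 on both platforms, to follow the pathway in the dermal branch. Dermal cells held less Bmper, Chrdl1, Bmp5, Gdf10, Tgfb2 and Tgfb3 and more Nog, Fstl3 and Tgfbr3, and the direction was shared by 4 of 4 pools for each called member. Of 47 members tested, 4 were higher and 9 lower (13 of 47, where 13.2% of all genes tested were called, 6.04% higher and 7.18% lower), the median being -0.22 against -0.04 over all genes, and 34 members that did not pass ranged from -3.17 to 1.51.

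Antagonists showed the widest differences. Bmper was at 1.04 and 2.33 CPM in DF-like and 24.1 and 19.3 CPM in LP-like cells of 10x, and at 8.19 and 2.66 CPM against 134.8 and 122.96 CPM in ss2 (-4.70, SE 0.382, adjusted p = 3.89e-06). Chrdl1, a Chordin-like Bmp antagonist, was at 1.04 and 0 CPM against 21.1 and 13.8 CPM in 10x and 14.8 and 5.53 CPM against 64.96 and 97.3 CPM in ss2 (-3.29, SE 0.454, adjusted p = 0.000532). Every DF-like value of both genes lay under every LP-like value of the same platform.

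Nog and Fstl3 went the other way. Nog was at 44.9 and 18.6 CPM against 11.8 and 0 CPM in 10x and at 2.29 and 5.91 CPM against 0 and 0.546 CPM in ss2 (3.74, SE 0.895, adjusted p = 0.0219). Fstl3, which binds activins, was at 8.35 and 23.3 CPM against 0 and 2.76 CPM in 10x and 13.4 and 40.2 CPM against 2.35 and 2.51 CPM in ss2 (3.47, SE 0.554, adjusted p = 0.000868). So of the 8 antagonists 2 were higher and 3 lower in dermal cells, with Fstl1 changing least (-0.37, SE 0.104, adjusted p = 0.0297).

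Of the ligands, Bmp5 was at 1.04 and 0 CPM in DF-like against 10.8 and 11.0 CPM in LP-like cells of 10x and 4.91 and 2.07 CPM against 35.8 and 28.6 CPM in ss2 (-3.41, SE 0.497, adjusted p = 0.000432). Tgfb2 was at 22.97 and 6.98 CPM against 57.5 and 27.6 CPM in 10x and 19.3 and 8.69 CPM against 100.6 and 51.7 CPM in ss2 (-2.18, SE 0.267, adjusted p = 9.93e-05). Tgfb3 was at 10.4 and 9.30 CPM against 33.9 and 27.6 CPM in 10x and 36.9 and 48.6 CPM against 127.8 and 171.1 CPM in ss2 (-1.78, SE 0.208, adjusted p = 7.16e-05). Both Tgf-beta ligands were thus lower in dermal cells at either day. Gdf10, a divergent Bmp-family ligand also known as Bmp3b, was at 13.6 and 11.6 CPM against 23.6 and 22.1 CPM in 10x and 15.8 and 26.4 CPM against 100.7 and 41.3 CPM in ss2 (-1.41, SE 0.367, adjusted p = 0.0249).

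Tgfbr3, the betaglycan coreceptor that presents Tgf-beta 2 to the signalling receptors, was at 48.03 and 109.3 CPM in DF-like against 23.1 and 41.4 CPM in LP-like cells of 10x and at 423.3 and 121.8 CPM against 177.7 and 82.4 CPM in ss2 (1.00, SE 0.182, adjusted p = 0.00233). Its ligand Tgfb2 was the lower in the same sums. Ltbp3 was at 10.4 and 27.9 CPM against 21.6 and 57.9 CPM in 10x and 27.98 and 22.1 CPM against 86.99 and 40.9 CPM in ss2 (-1.20, SE 0.242, adjusted p = 0.00479). Bmp1 (-0.73) and Smad5 (0.70) changed by less than 2-fold, and no type I or type II receptor passed edgeR's test, though 4 of them were lower at an unadjusted p under 0.05, and DESeq2 called 0.

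The fixed target lists differed in their counts. Of 10 Bmp targets 6 were higher and 1 lower in dermal cells, led by Msx2 (4.47), Atoh8 (2.37), Gata6 (-2.12) and Id4 (1.38), and their median was 1.18. Of 11 tested Tgf-beta targets edgeR called 0 higher and 5 lower (0 and 6 at an unadjusted p under 0.05 and with DESeq2), among them Postn (-2.11), Tgfbi (-0.79) and Thbs1 (-0.78), with a median of -0.59, of which Postn and Thbs1 had served as LP markers. Of 28 tested other pathway genes 5 were higher and 5 lower, among them Tll1 (-4.26), Lefty1 (3.15) and Sostdc1 (2.83). The DF-like to LP-like difference itself changed between E14.5 and E16.5, by edgeR's test of the interaction of class and day, for 3 of the 47 members, Bmp3, Bmp7 and Fst, where 3.99% of all genes tested were called. Without the 10x pool of E14.5 the number of called members was 8, and with coarser clusters (resolution 0.4) Chrdl1 no longer passed (-6.28, adjusted p = 0.198).

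LP-like cells of E14.5 and E16.5 were set against EP-like cells of E12.5 to follow the mesenchymal progenitors over time, with platform in the fit. Later progenitors held more of the antagonists Chrdl1, Bmper, Fst, Fstl1 and Nbl1, of both coreceptors and of Tgfbr2, and less Tgfb2 and Acvr2b. Of 47 members tested, 13 were higher and 2 lower (15 of 47, where 5.94% of all genes tested were called, 4.86% higher and 1.08% lower), with a median of 0.27 against 0.11 over all genes and 32 others from -2.94 to 7.69. This call rested on few sums: without the ss2 pool of E12.5 no member passed edgeR's test (6 higher and 2 lower at an unadjusted p under 0.05), and 1 gene of all did, while without the 10x pool of E12.5 or of E16.5 the number of members was 8. EP-like cells share these sums with the muscle comparison above, and LP-like cells with the dermal and muscle ones.

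Among antagonists, Chrdl1 was at 0 CPM in EP-like cells and 21.1 and 13.8 CPM in LP-like cells of 10x, and at 8.32 CPM against 64.96 and 97.3 CPM in ss2 (3.92, SE 0.627, adjusted p = 0.00143). Bmper was at 2.06 CPM in EP-like cells of 10x and 11.6 CPM in those of ss2, under all 4 LP-like values given above (3.87, SE 0.517, adjusted p = 0.000358). Fst rose from 18.6 CPM to 79.1 and 80.01 CPM in 10x and from 12.1 CPM to 51.7 and 160.5 CPM in ss2 (3.22, SE 0.635, adjusted p = 0.01). All 3 were higher at both later days on each platform.

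Of the receptors, 1 of 6 type I and 1 of 4 type II were higher and 1 type II was lower, and both coreceptors were higher. Eng was at 2.06 CPM against 13.8 and 8.28 CPM in 10x and at 1.39 CPM against 54.2 and 128.04 CPM in ss2 (6.25, SE 0.932, adjusted p = 0.00146). Acvrl1, a type I receptor that works with Eng, was at 0 CPM against 2.95 and 19.3 CPM in 10x and 5.18 CPM against 25.4 and 49.8 CPM in ss2 (3.49, SE 0.916, adjusted p = 0.0374). Tgfbr2 was at 30.9 CPM against 51.6 and 52.4 CPM in 10x and 46.6 CPM against 303.4 and 262.97 CPM in ss2 (2.21, SE 0.490, adjusted p = 0.0123). Tgfbr3 was at 14.4 CPM against 23.1 and 41.4 CPM in 10x and 41.6 CPM against 177.7 and 82.4 CPM in ss2 (1.82, SE 0.464, adjusted p = 0.026). Acvr2b fell, from 51.5 CPM to 7.37 and 0 CPM in 10x and from 21.9 CPM to 3.93 and 1.68 CPM in ss2 (-2.74, SE 0.638, adjusted p = 0.0159).

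For the matrix-binding proteins and ligands, Ltbp4 was at 10.3 CPM against 39.8 and 57.9 CPM in 10x and 22.8 CPM against 276.04 and 145.5 CPM in ss2 (3.28, SE 0.491, adjusted p = 0.000922), and Ltbp3 at 18.6 CPM against 21.6 and 57.9 CPM in 10x and 3.89 CPM against 86.99 and 40.9 CPM in ss2 (3.20, SE 0.814, adjusted p = 0.0424). Bmp3, a ligand that opposes other Bmps, was at 4.12 CPM against 4.91 and 19.3 CPM in 10x and 7.35 CPM against 83.04 and 33.1 CPM in ss2 (2.98, SE 0.745, adjusted p = 0.0252). Inhbb, the activin B subunit, was at 0 in both EP-like sums and at 4.42 and 8.28 CPM in 10x and 10.7 and 5.79 CPM in ss2 in LP-like cells (adjusted p = 0.00375). Later progenitors thus held more of each of these 4 genes. Tgfb2 (-1.57), Fstl1 (1.62) and Nbl1 (1.47) completed the called members. Of the 10 Bmp targets edgeR called 0 higher (1 at an unadjusted p under 0.05, and 1 with DESeq2) and 3 lower. The lower ones were Msx1 (-8.81), Msx2 (-4.75) and Runx2 (-2.14). Of 11 Tgf-beta targets edgeR called Postn (4.75) and Col1a1 (3.41) higher, where Postn had served as an LP marker. DESeq2 called 5 of the Tgf-beta targets higher and 1 lower.

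**Figure D3:**
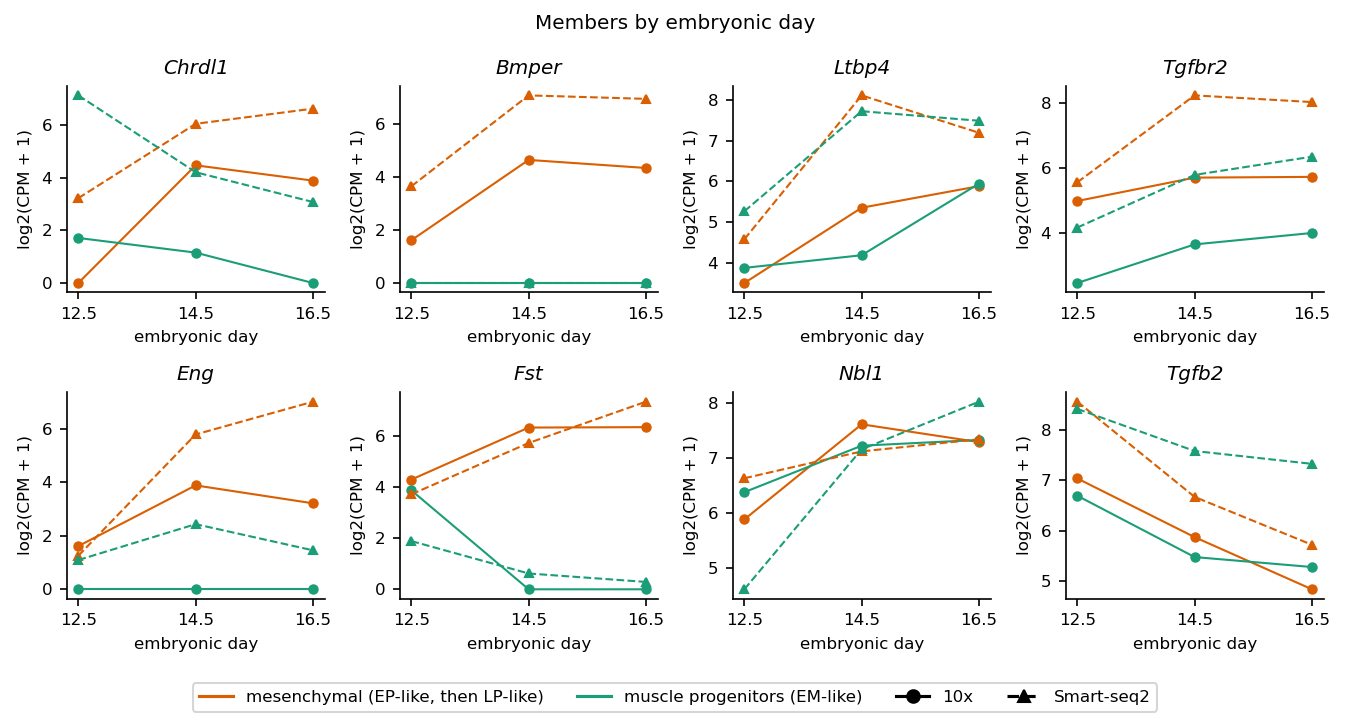
Level of 8 members, as log2(CPM + 1), by day of sorting in mesenchymal progenitors (orange, EP-like then LP-like) and EM-like cells (green). Lines are solid for 10x and dashed for ss2, and each point is 1 sum of a class and pool. Ltbp4 and Tgfbr2 were higher after E12.5 in both cell groups, whereas Chrdl1 was higher in mesenchymal and lower in EM-like cells of ss2.

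EM-like cells were compared between E14.5 or E16.5 and E12.5 in the same way. Of 41 members tested, 3 were higher and 2 lower (5 of 41, where 3.48% of all genes tested were called, 2.12% higher and 1.36% lower), with a median of -0.17 against 0.10. Nbl1 was at 81.8, 147.6 and 158.8 CPM at the 3 days in 10x and at 23.4, 140.96 and 257.7 CPM in ss2 (2.35, SE 0.498, adjusted p = 0.0159). Ltbp4 was at 13.6, 17.2 and 60.5 CPM in 10x and 37.4, 210.5 and 178.8 CPM in ss2 (2.31, SE 0.482, adjusted p = 0.00736). Tgfbr2, given above for these cells, had a log2 fold change of 2.15 (SE 0.534, adjusted p = 0.0217), so 3 members higher in later mesenchymal progenitors, Nbl1, Ltbp4 and Tgfbr2, were also higher in later muscle progenitors.

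Grem1, a secreted Bmp antagonist, and Chrdl1 fell in EM-like cells. Grem1 was at 9.09, 0.613 and 0 CPM in 10x and at 5.53, 0.0412 and 0 CPM in ss2 (-6.29, SE 1.68, adjusted p = 0.0343). Chrdl1 was at 2.27, 1.23 and 0 CPM in 10x and at 138.4, 17.5 and 7.42 CPM in ss2 (-3.02, SE 0.589, adjusted p = 0.00353), opposite in sign to the mesenchymal cells, a difference that was not tested. Its high E12.5 value was seen in ss2 and not in 10x. Without the ss2 pool of E12.5 or the 10x pool of E16.5 no member passed edgeR's test (6 and 99 genes of all did, and 4 and 15 members at an unadjusted p under 0.05), without the 10x pool of E14.5 the number was 3 and without the ss2 pool of E16.5 it was 8. No gene of the Bmp target list passed with edgeR or DESeq2, or at an unadjusted p under 0.05, and of the other pathway genes none passed with edgeR or DESeq2, while 4 were higher and 3 lower at an unadjusted p under 0.05. Of the Tgf-beta targets Tagln (3.09) and Postn (1.42) were higher.

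BA-like cells were numerous in 1 pool only, the 10x pool of E16.5, so their ratios to LP-like cells of that pool are without replicate check or test, and intervals cover counting error only. In this pool the brown adipocyte-like cells held less of the antagonists Fstl1, Nbl1 and Fst, of Tgfbr2 and of Smad1, Smad4 and Smad7. Of the 15 members with at least 20 UMIs in both sums together, 10 were lower past 2-fold and none higher, while 47% of all 4685 genes with that many UMIs were past 2-fold, 23.3% higher and 23.7% lower. A member could pass this filter through 1 sum alone, as Fst did with 29 UMIs in LP-like cells. Tgfbr3 passed it through its 31 UMIs in BA-like cells. The count of lower members is therefore not independent of the filter.

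Of Nbl1, 3 UMIs fell in BA-like cells against 56 in the LP-like sum, a CPM ratio of 0.0389 (interval 0.00779 to 0.12). Fstl1, with 35 UMIs in BA-like cells, had a ratio of 0.0645 (0.0443 to 0.0913). Fst had none against 29 UMIs, which made it at least 13.3-fold lower by the floor of 3 counts. These 3 antagonists had the lowest ratios. Ltbp1 had 2 against 19 UMIs (ratio 0.0765, 0.00864 to 0.317), Smad1 5 against 26 (0.14, 0.0419 to 0.37), Tgfbr2 4 against 19 (0.153, 0.0378 to 0.46) and Ltbp4 5 against 21 (0.173, 0.051 to 0.471). Smad7, Bmp1 and Smad4 had ratios of 0.251, 0.325 and 0.363, and the interval of Smad4 reached 0.962. In the fresh bulk sorts below Smad4 went the other way, higher in the Cd36+ than in all Pdgfra+ libraries without passing the test.

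For 5 members the interval of the ratio held 1. Tgfbr3 had 31 against 15 UMIs (ratio 1.5, 0.787 to 2.99), Ltbp3 29 against 21 (1.00, 0.553 to 1.85) and Smad5 16 against 14 (0.83, 0.38 to 1.84), and the Bmp receptors Bmpr1a and Bmpr2 had ratios of 0.554 (0.27 to 1.11) and 0.519 (0.206 to 1.26). Each of the 14 ligands had 0 or 1 UMI in BA-like cells, at most 2 CPM.

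**Figure D4:**
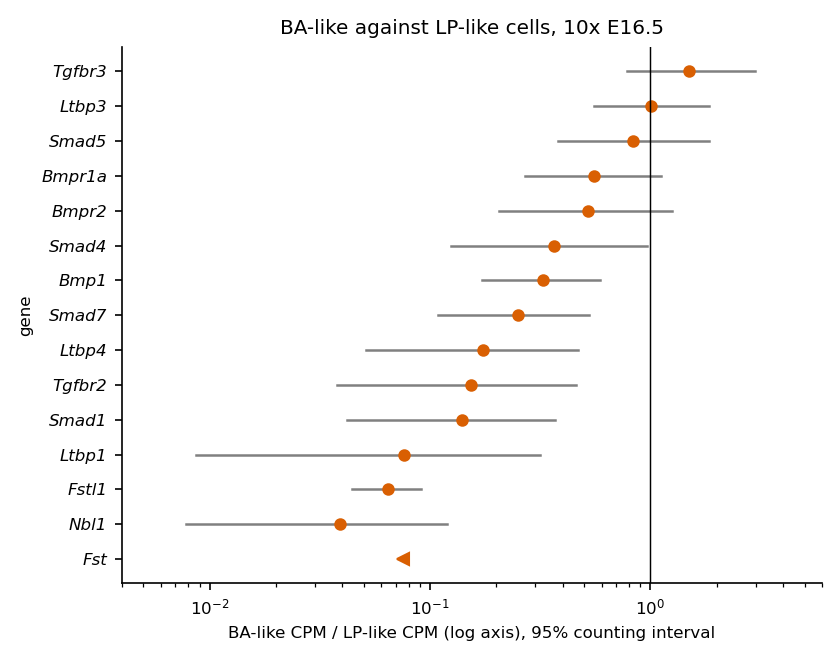
Ratio of CPM in BA-like to LP-like cells of E16.5 in 10x on a log axis, for the 15 members with at least 20 UMIs; bars are 95% intervals for counting error, the line marks a ratio of 1, and the arrow marks the bound for Fst, which had no UMI in BA-like cells. The points run from 0.0389 for Nbl1 to 1.5 for Tgfbr3.

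The fresh bulk sorts of E16.5 gave a second view of the adipocyte gate. In Pdgfra-/Cd36+ libraries Cd36 was at 684 to 910 CPM and the summed BA markers at 15263 to 18406 CPM, against 62.9 to 436.95 CPM of BA markers in the Pdgfra+ libraries. Endothelial markers summed to 60.1 to 65.5 CPM in the Cd36+ and 22 to 25.4 CPM in the Pdgfra+ libraries, where all 6 were detected. Most of the sum was Pecam1, at 47.7 to 56.8 CPM against 15.4 to 17.3 CPM. Cdh5 was also higher in Cd36+ libraries (1.19 to 1.61 against 0.516 to 0.946 CPM), Kdr was lower (1.76 to 1.82 against 2.27 to 3.38 CPM) and Emcn overlapped. The part of endothelial markers in the results was not tested. If 2 of the Pdgfra+ libraries are from E14.5, their day also differs from that of the Cd36+ libraries, and its part was not tested. In bulk, fewer cells of a type and less RNA per cell cannot be told apart. Library totals were 3390851 to 35332908 counts over the 18 bulk libraries, and CPM values are scaled by the TMM factors of edgeR.

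Of the 48 members, all tested, edgeR called 0 higher and 27 lower in Cd36+ than in Pdgfra+ cells (1 and 33 at an unadjusted p under 0.05, and 0 and 34 with DESeq2). This was 27 of 48, where 31.6% of all genes tested were called, 13.7% higher and 17.9% lower. The median was -2.45 against -0.05 over all genes. Ligands and antagonists made up most of them: 6 of 7 Bmp ligands, 4 of 7 Tgf-beta and activin ligands and 6 of 8 antagonists were lower, against 4 of 6 type I receptors. Of the 4 type II receptors edgeR called 0, while 1 was lower at an unadjusted p under 0.05 and 1 with DESeq2. Leaving out 1 of the 2 Cd36+ libraries left 15 or 17 members called.

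Grem1 was at 4.83, 8.72, 4.29 and 7.61 CPM in the 4 Pdgfra+ and 0.0727 and 0.181 CPM in the 2 Cd36+ libraries (-5.54, SE 1.07, adjusted p = 0.00122). Nbl1 was at 10.6, 21.4, 9.00 and 16.4 CPM against 0.460 and 0.279 CPM (-5.28, SE 0.652, adjusted p = 4.68e-05). Fst was at 15.3, 17.8, 10.3 and 11.3 CPM against 0.630 and 0.740 CPM (-4.31, SE 0.450, adjusted p = 1.18e-05). For each of these antagonists, and for Fstl1 at 1510, 1680, 1532 and 1459 CPM against 71.7 and 71.99 CPM (-4.43, SE 0.907, adjusted p = 0.00182), the 2 groups were far apart.

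The Tgf-beta ligands followed. Tgfb3 was at 19.9, 60.3, 25.8 and 71.9 CPM against 0.654 and 1.63 CPM (-5.27, SE 0.834, adjusted p = 0.000288), and Tgfb2 was at 12.4, 31.3, 13.8 and 22.7 CPM against 0.460 and 0.6247 CPM (-5.19, SE 0.497, adjusted p = 5.63e-06). Inhba was at 22.2, 16.3, 19.7 and 10.6 CPM against 0.654 and 0.460 CPM (-4.94, SE 0.894, adjusted p = 0.000784). No Cd36+ value reached 2 CPM for any of these ligands.

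Of the Bmp ligands, Bmp7, a ligand known to promote brown adipogenesis, was at 25.01, 12.4, 13.4 and 8.89 CPM against 0.630 and 0.279 CPM (-5.04, SE 0.814, adjusted p = 0.000327). Bmp4 was at 15.5, 18.4, 15.3 and 14.45 CPM against 0.339 and 0.871 CPM (-4.69, SE 1.09, adjusted p = 0.00435), and Gdf10 at 13.8, 21.9, 9.80 and 19.2 CPM against 0.824 and 0.477 CPM (-4.64, SE 0.731, adjusted p = 0.000277). The 3 ligands were all low in the gate that held the adipocyte markers. Acvrl1 was at 10.3, 18.7, 12.46 and 18.2 CPM against 1.14 and 0.822 CPM (-3.93, SE 0.591, adjusted p = 0.000196) and Ltbp4 at 42.9, 56, 34.3 and 44 CPM against 3.44 and 2.43 CPM (-3.91, SE 0.466, adjusted p = 3.35e-05).

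Ltbp3, Smad4 and Smad6, named here though none passed the test, were higher in both Cd36+ libraries than in any Pdgfra+ library. The share of all genes placed in this way was not counted. Ltbp3 was at 50.8 and 49.7 CPM in Cd36+ and at 11.6, 30.5, 12.2 and 28.9 CPM in Pdgfra+ libraries. The medians of Smad4 were 17.8 CPM in Cd36+ against 13.7 CPM in Pdgfra+ libraries, and those of Smad6 were 2.32 against 1.35 CPM. Of 34 tested other pathway genes 2 were higher, the type I receptor Acvr1c (5.64) and Gdf15 (4.4), and 18 lower. Of 12 Tgf-beta targets 10 were lower, Col1a1 (-5.60), Postn (-5.25), Ccn2 (-5.04) and Fn1 (-4.84) by the most, and of 10 Bmp targets 5 were lower.

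Cultured Pdgfra+ cells in DMEM were compared with fresh Pdgfra+ cells. The cultured cells had been sorted at E14.5 and the fresh ones, by their labels, at E16.5, so culture and day cannot be told apart. The summed PE markers, which include Acta2, were at 13297 to 24414 CPM in DMEM against 160.2 to 317.3 CPM in fresh cells. Other marker sums moved too, BA markers being at 2.82 to 35412 CPM in DMEM against 62.9 to 436.95 CPM in fresh cells, blood and immune markers at 0.18 to 1.11 CPM against 52.1 to 83.8 CPM, and cartilage markers at 0.277 to 15 CPM against 98.2 to 159.2 CPM, and their part in the results was not tested. Cultured cells held less of most ligands and receptors and of 4 of the 5 receptor-regulated Smads, and more Grem1, Fstl1 and Ltbp2. All 48 members were tested, and 6 were higher and 28 lower (34 of 48, where 53.8% of all genes tested were called, 20.2% higher and 33.6% lower), with a median of -1.21 against -0.31.

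This comparison depended on the scaling. With library totals in place of TMM factors the median of all genes moved by -1.34 and the share of calls that were higher went from 37.5% to 5.66%, and edgeR then called 37 members lower. Under that scaling Grem1, Fstl1, Ltbp2, Smad9 and Chrdl1 no longer passed and Acvr2a turned from 0.58 to -0.76 (adjusted p = 0.105). The direction of these 6 is therefore relative to the TMM scaling.

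Bmp7 was at 25.01, 12.4, 13.4 and 8.89 CPM in fresh cells and at 0.0505 to 0.517 CPM (median 0.159) in the 6 DMEM libraries (-6.17, SE 0.555, adjusted p = 1.88e-07). Bmp3 was at 39.5, 14.8, 35.8 and 14.4 CPM against 0.656 to 2.52 CPM (median 1.18; -4.24, SE 0.44, adjusted p = 7.78e-07). Bmp2 was at 6.92, 13.9, 4.57 and 10.5 CPM against 0.555 to 1.87 CPM (median 1.18; -2.86, SE 0.413, adjusted p = 2.44e-05). None of these 3 ligands overlapped between the groups, but the share of all genes without overlap was not counted. Bmp5 overlapped, at 1.02, 12.8, 2.85 and 17.97 CPM against 0.151 to 1.90 CPM (median 0.787; -3.14, SE 0.726, adjusted p = 0.0017), and Bmp6 was low in all libraries, at 0.738, 0.653, 0.443 and 0.550 CPM against 0 to 0.300 CPM (median 0.0757; -2.48, SE 0.751, adjusted p = 0.0144).

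Of the 8 Smads 6 were lower and 1 was higher. Smad1 was at 21.9, 28.6, 17.7 and 25.3 CPM in fresh and 2.41 to 4.21 CPM (median 3.33) in DMEM cells (-2.82, SE 0.321, adjusted p = 2.08e-06). Smad7, itself induced by the pathway, was at 13.8, 17.5, 9.31 and 14.52 CPM against 1.14 to 2.98 CPM (median 2.27; -2.68, SE 0.322, adjusted p = 3.69e-06). Smad2, Smad3, Smad4 and Smad5 had log2 fold changes from -1.54 to -0.54, and Smad9 rose by 1.54. Smad6, at -0.21, did not pass.

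Receptors fell too, 5 of 6 type I and 2 of 4 type II. Acvr1b, the activin type I receptor, was at 1.41, 4.61, 1.47 and 5.10 CPM against 0.331 to 1.02 CPM (median 0.459; -2.59, SE 0.489, adjusted p = 0.000325). Acvr2b was at 2.09, 0.722, 3.102 and 1.21 CPM against 0.101 to 0.461 CPM (median 0.272; -2.71, SE 0.657, adjusted p = 0.0024). Both were low receptors in these libraries. Bmpr1a (-1.46), Tgfbr1 (-1.57) and Bmpr2 (-1.30), named beyond the 12 of largest change as the main receptors of the branches, fell by less.

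Antagonists moved in both directions. Nog was at 2.18, 0.585, 1.99 and 0.242 CPM in fresh and 0 to 0.231 CPM (median 0.131) in DMEM libraries (-3.39, SE 0.837, adjusted p = 0.00275). Grem1 was at 4.83, 8.72, 4.29 and 7.61 CPM against 15.98 to 75.9 CPM (median 36.9; 2.66, SE 0.615, adjusted p = 0.00174). Fstl1 was at 1459 to 1680 CPM in fresh and 4808 to 8771 CPM (median 7781) in DMEM libraries (2.25, SE 0.578, adjusted p = 0.00366). Inhbb, with a change of the same size as Fstl1, was at 5.69, 1.01, 5.59 and 0.682 CPM against 0.180 to 1.29 CPM (median 0.606; -2.25, SE 0.637, adjusted p = 0.00683) and overlapped between the groups.

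Of 12 Tgf-beta targets 6 were higher in DMEM, Acta2 (8.86), Tagln (7.23), Cdkn2b (5.46) and Timp3 (3.54) by the most, and 2 were lower, among them Klf10 (-3.51), where Acta2 is also a PE marker. Of 10 Bmp targets Id3 (1.17) was higher and 4 were lower, Msx1 (-4.26), Msx2 (-2.31), Hey1 (-2.12) and Id4 (-1.15). Of 34 tested other pathway genes 3 were higher and 17 lower.

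**Figure D5:**
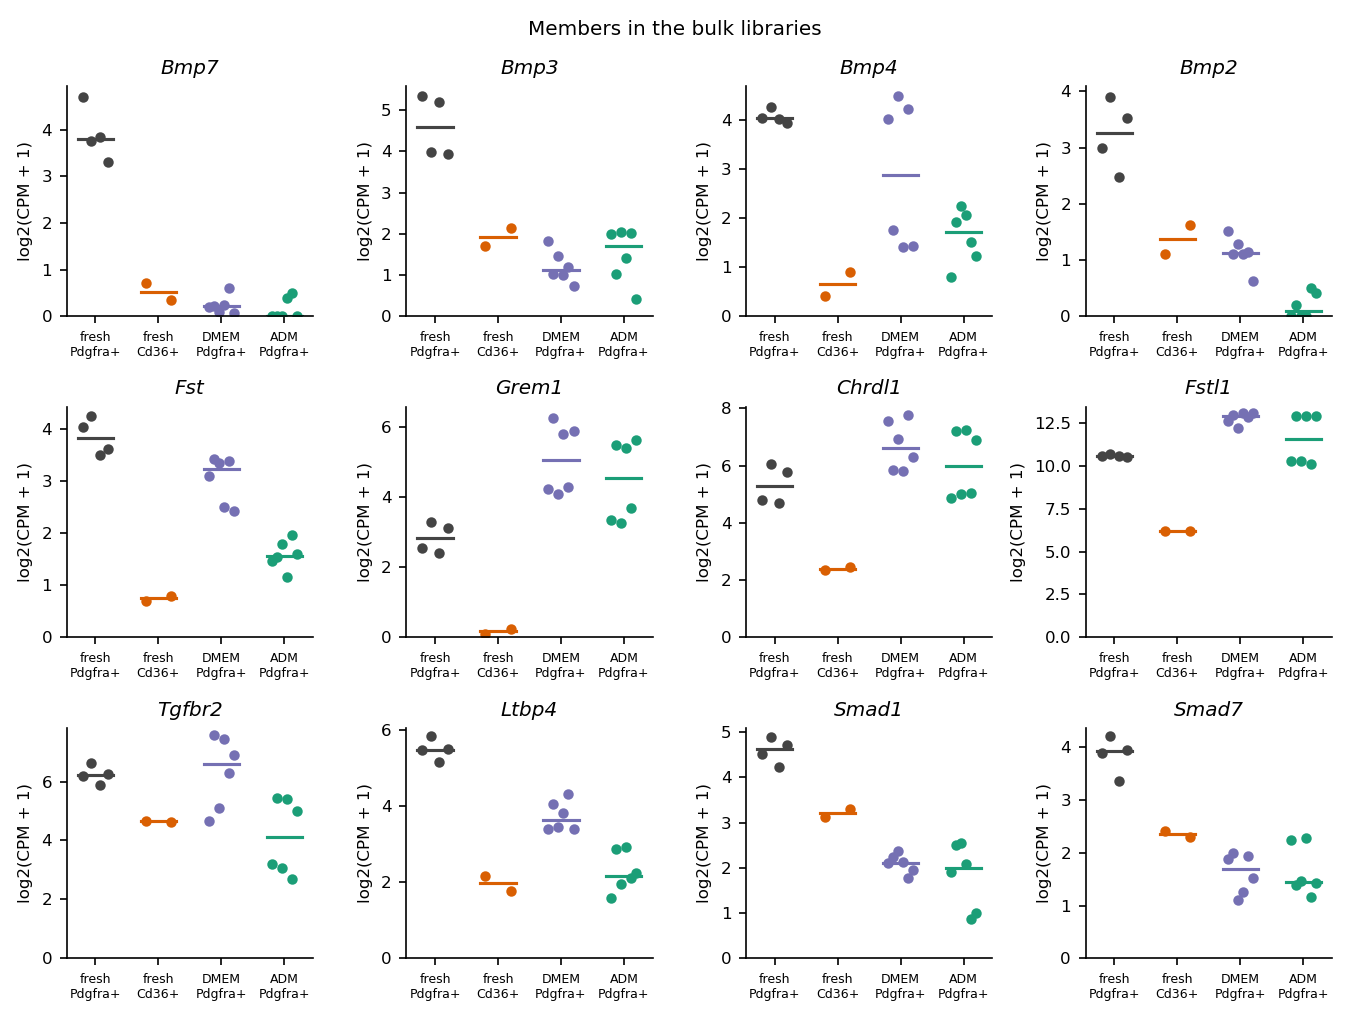
Level of 12 members in each bulk library, as log2(CPM + 1) with TMM-scaled CPM, in fresh Cd36+, fresh Pdgfra+, DMEM and ADM libraries; points are libraries and lines the medians. Fresh Cd36+ libraries lie lowest for Grem1 and Fstl1, DMEM libraries lie under fresh Pdgfra+ ones for Bmp7, Bmp3, Smad1 and Smad7, and the ADM points of Fstl1 fall into groups of 3.

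The adipogenic medium was compared with DMEM over both Thy1 gates, sharing the DMEM libraries with the comparison above. Of 48 members edgeR called 0 higher (0 also at an unadjusted p under 0.05, and 2 with DESeq2) and 12 lower in ADM. This was 12 of 48, where 9.05% of all genes tested were called, 5.14% higher and 3.91% lower, with a median of -0.43 against -0.02. The 2 libraries of a replicate number stood far apart: the summed BA markers were at 148750 to 154870 CPM in ADM libraries 1, 3 and 5 and at 2184 to 2252 CPM in libraries 2, 4 and 6, against 22934 to 35412 and 2.82 to 5.35 CPM in the DMEM libraries of the same numbers. Their part in the members' calls was not tested. With the 2 libraries of a replicate number summed the number of members called was 19, without ADM library 1 it was 7, and without TMM it was 7.

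Fst was at 4.34 to 9.66 CPM (median 8.33) in the 6 DMEM and 1.23 to 2.87 CPM (median 1.96) in the 6 ADM libraries, without overlap (-1.88, SE 0.272, adjusted p = 0.00218). Nbl1 was at 2.58 to 8.62 CPM (median 4.82) against 0.2504 to 2.02 CPM (median 1.49), also without overlap (-1.89, SE 0.386, adjusted p = 0.0103). Ltbp4 was at 9.49 to 18.8 CPM (median 11.4) against 2.00 to 6.59 CPM (median 3.49; -1.59, SE 0.274, adjusted p = 0.00471). These 3 genes were lower in every ADM library than in any DMEM library. For this and the values below, the share of all genes without overlap between the media was not counted.

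Bmp2 was at 0.555 to 1.87 CPM (median 1.18) against 0 to 0.410 CPM (median 0.0731; -3.13, SE 0.631, adjusted p = 0.00978). Bambi was at 5.74 to 9.85 CPM (median 8.35) against 1.11 to 4.68 CPM (median 2.38; -1.61, SE 0.330, adjusted p = 0.0103). Eng was at 19.7 to 26.6 CPM (median 25.2) against 4.87 to 18.1 CPM (median 11.5; -1.05, SE 0.249, adjusted p = 0.0193). Acvrl1 was at 6.41 to 8.48 CPM (median 7.41) against 0.443 to 5.52 CPM (median 3.39; -1.13, SE 0.347, adjusted p = 0.0493). These 4 did not overlap between the media, although Acvrl1 and Eng no longer passed without TMM.

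The others overlapped. Tgfbr2 was at 24.5 to 189.4 CPM (median 97.8) against 5.54 to 42.9 CPM (median 19.6; -2.16, SE 0.567, adjusted p = 0.0284), and Bmp1 at 19.4 to 78.5 CPM (median 53.5) against 4.51 to 20.8 CPM (median 11.7; -2.10, SE 0.390, adjusted p = 0.00653). Bmp4 was at 1.66 to 21.6 CPM (median 8.79) against 0.751 to 3.77 CPM (median 2.31; -2.09, SE 0.637, adjusted p = 0.049). Part of this range lay within replicate numbers: in DMEM, libraries 1, 3 and 5 held 15.2, 21.6 and 17.8 CPM of Bmp4 and libraries 2, 4 and 6 held 2.37, 1.66 and 1.72 CPM. Smad3 was at 8.48 to 19.1 CPM (median 14.1) against 3.00 to 8.74 CPM (median 5.72; -1.27, SE 0.287, adjusted p = 0.0155) and Gdf10 at 23.2 to 38.5 CPM (median 30.2) against 2.88 to 24.2 CPM (median 9.85; -1.36, SE 0.385, adjusted p = 0.0385).

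Within ADM the 2 libraries of a replicate number differed several-fold for some members. Fstl1 was at 1261, 1241 and 1120 CPM in ADM libraries 1, 3 and 5 and at 7902, 7670 and 7724 CPM in libraries 2, 4 and 6, a fold of 6.18 to 6.90 within a replicate. Ltbp1 differed 9.01- to 9.43-fold, Inhba 5.32- to 5.84-fold and Tgfbr2 5.19- to 5.71-fold within ADM replicates, given as descriptions with no test, since the gate of a column was not identified. Grem1 was at 9.27, 8.64 and 11.9 CPM against 44.2, 41.3 and 48.7 CPM, while Ltbp3 went oppositely, at 38.8, 39.9 and 34.9 CPM in libraries 1, 3 and 5 and 9.22, 9.20 and 8.07 CPM in the others. The TMM factors were 0.396 to 0.415 in libraries 1, 3 and 5 and 0.878 to 0.917 in libraries 2, 4 and 6. The size of these folds is therefore relative to the TMM scaling. Of the Bmp targets none passed between the media in the edgeR or the DESeq2 test (1 was lower at an unadjusted p under 0.05). Of the Tgf-beta targets none passed with edgeR (1 higher and 3 lower at an unadjusted p under 0.05) and 1 was higher with DESeq2. Of the other pathway genes Tgif2 (-1.47), Rgma (-1.33), Lrrc32 (-1.32) and Kcp (-1.19) were lower.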

How the data were processed

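YFP+ single cells were measured by 10x (3 libraries, 2934 cells) and Smart-seq2 (982 cells), and sorted or cultured populations by 18 bulk libraries. The authors deposited UMI counts per gene and cell made with Cell Ranger (10x), expected counts estimated by kallisto 0.44.0 and summarised with tximport (Smart-seq2), which were rounded after summing, and raw counts per gene for bulk, whose aligner and counter are not given in the sources used here. The submitters' processing notes name build mm10. PCR reads without molecular identifiers are not independent molecules, so counting intervals are given for UMIs only, and they and the floor of 3 counts cover counting error only. The members and gene lists were chosen with earlier results of these data known.

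Cells above 8% mitochondrial counts were removed, and the 15147 genes of both tables, without the members and pathway genes, were clustered with Seurat 5.3.0 (2000 variable genes, 30 components, resolution 0.8). A cluster was given the class whose markers had the largest average z-score in it, at least 0.25 (a minimum set after the scores were seen) with 3 markers. Scrublet, through scanpy 1.11.5, called 26 of 2934 10x cells doublets, which were removed only as an alternative. Counts were summed per class and pool for sums of at least 20 cells and tested with edgeR 4.0.16 (filterByExpr, TMM, quasi-likelihood), with pool or platform in the fit. Bulk libraries were fitted together. Adjusted p is Benjamini-Hochberg over all genes tested, called under 0.05, and checked on simulated data. Members past the threshold were named by size of log2 fold change, up to 12 per comparison, and shown in every sample where it reached 1. DESeq2 1.42.0, other filters, cluster resolutions of 0.4 and 1.2, doublet removal, no mitochondrial limit and leaving out each pool or library were alternatives. ADM against DMEM, Cd36+ against Pdgfra+, summed gates, library totals without TMM and the interactions of class and day were added after the data were seen, since the Thy1 sign was missing from the column names. Same-numbered bulk libraries were not treated as pairs.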

Additional observations from a re-analysis of the deposited data

Results flagged for a closer look

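The members' values in the 3 groups of 4 to 6 bulk libraries were looked at for a library far from the rest of its group. Of these, 5 held one, no more than the 6.6 that an assumed rate of 1 in 20 groups would give. All 5 were low values. Each group held both Thy1 gates, and the rate was not derived for such groups. Bmp7 was at 0.517 CPM in DMEM library 5 against 0.0505 to 0.185 CPM in the other DMEM libraries. Acvr1b was at 1.02 CPM in DMEM library 3 against 0.331 to 0.505 CPM, and at 1.77 CPM in ADM library 3 against 0.25 to 0.82 CPM. Mstn was at 0.672 CPM in ADM library 6, the other ADM libraries being at 0, and Nog was at 1.25 CPM in ADM library 1 against 0 to 0.439 CPM.

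The difference between classes itself changed between E14.5 and E16.5 for 6 members, by edgeR's test of the interaction of class and day with adjusted p over all genes tested, which called 3.99% of all genes for the dermal and 2.55% for the muscle comparison. For DF-like against LP-like cells, the log2 fold change at E16.5 minus that at E14.5 was 2.33 (SE 0.613, adjusted p = 0.0074) for Bmp3, 1.42 (SE 0.452, adjusted p = 0.0447) for Bmp7 and -1.15 (SE 0.361, adjusted p = 0.0393) for Fst. For LM-like against EM-like cells it was -1.94 (SE 0.513, adjusted p = 0.0126) for Mstn, -3.96 (SE 1.18, adjusted p = 0.0391) for Bmp7 and -1.79 (SE 0.536, adjusted p = 0.0391) for Tgfb3. Bmp7 had too few counts for a test of LM-like against EM-like cells themselves, and its LM-like ss2 sum of E16.5 held 6 counts (0.218 CPM). Tgfb3 had no UMI in the LM-like 10x sum of E16.5, which held 40 cells. These tests were chosen after the data were seen, and each day is 1 10x and 1 ss2 pool.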

How the results depend on the processing

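Some called members were not tested in every alternative, and such alternatives are left out of the next counts. In LM-like against EM-like, for example, Bmp1 and Ltbp1 were tested in 9 alternatives and Tgfb2 in 11. Calls held under all alternatives that tested the member for 7 of 13 in DF-like against LP-like and 6 of 10 in LM-like against EM-like. They held for 12 of 18 in EM-like against mesenchymal and 0 of 15 in LP-like against EP-like. For EM-like cells over time it was 0 of 5. In bulk they held for 25 of 34 in DMEM against fresh and 6 of 12 in ADM against DMEM. They held for 14 of 27 in Cd36+ against Pdgfra+. All members kept their sign except Acvr2a, at -0.76 without TMM in DMEM against fresh. Leaving out 1 pool or library gave these ranges of genes and members called: 1098 to 1589 and 8 to 13 for DF-like (1732 and 13 with all), 1295 to 2598 and 5 to 12 for LM-like (2169 and 10), 1795 to 4048 and 11 to 21 for EM-like against mesenchymal (3150 and 18), 1 to 1576 and 0 to 18 for LP-like against EP-like (834 and 15), 6 to 875 and 0 to 8 for EM-like over time (3.48% of genes and 5), 8151 to 9043 and 29 to 34 for DMEM against fresh (9459 and 34), 552 to 2781 and 7 to 12 for ADM against DMEM (1591 and 12) and 2102 to 4840 and 15 to 27 for Cd36+ (5565 and 27). DESeq2 called 28 members in EM-like against mesenchymal and 1475 genes in LP-like against EP-like. For ADM against DMEM, genes called were 3250 with DESeq2, 1046 with no low-count filter, 853 without TMM (7 members), 647 with the cultured libraries alone (6 members) and 4795 with gates summed (19 members), and summing gates gave 9454 genes for Cd36+ against Pdgfra+. The cause was not tested. The share of calls that were higher went from 56.8% to 21% without TMM and to 70.9% with DESeq2 in ADM against DMEM, and from 81.8% to 71.3% with DESeq2 in LP-like against EP-like.

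The replicate numbers of ADM and DMEM did not pair the samples (correlations of deviations -0.26, 0.058 and -0.0562). With the number as a replicate block, 440 genes and 7 members were called in ADM against DMEM, and Acvr2a, Chrdl1 and Mstn no longer passed in DMEM against fresh. Fresh Thy1+ against Thy1-, Cd36+ against Thy1-, the medium effect within a gate, its interaction with Thy1 and the Thy1 contrast in DMEM were not run, because the Thy1 sign of a column was not identified. Low UMI totals (52516 in the PE-like sum) limit what 10x could resolve for ligands.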
